A study of Zea mays with 4 samples.

Results

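The embryo-surrounding region (ESR) of the maize kernel is the group of endosperm cells that lines the cavity around the young embryo. ESR cells were taken from single-cell libraries of 7 DAP (days after pollination) endosperm as the barcodes in which 6 ESR genes together held 5% or more of all transcripts. The genes were ESR1 (Zm00001d027820), ESR2 (Zm00001d027819), ESR3 (Zm00001d027821), ESR6 (Zm00001d053112), MEG14 (Zm00001d019033) and 1d038758 (Zm00001d038758). The short form 1d038758 stands for the identifier Zm00001d038758, and other genes without a symbol are written in the same way. The rule gave 180 ESR barcodes among 17027 barcodes of 7 DAP, and the whole series held 21654 barcodes. They are compared below with the 16766 barcodes of 7 DAP in which the same 6 genes held under 1%, and 81 barcodes lay between these limits.

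Endosperm of the maize inbred line B73, a wild-type line with no treatment, was digested into protoplasts at 6 DAP (1 library) and at 7 DAP (3 libraries, replicates 1 to 3). Libraries were made by droplet capture with 3' chemistry, in which a unique molecular identifier (UMI) marks each captured transcript, so a gene's share of UMIs does not depend on the length of its transcript. Protoplasts came from the pooled endosperm of many kernels. The study calls the 3 libraries of 7 DAP biological replicates without saying whether they came from separate plants, and p-values measure the spread between these libraries. All 7 DAP libraries shared the age, the line and the protoplasting.

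ESR cells lie around the young embryo near the base of the kernel, where the basal endosperm transfer layer (BETL) is also found, through which sugars and other nutrients enter the kernel. They are known for small secreted peptides. ESR1, ESR2 and ESR3 encode near-identical small proteins with a motif of the CLAVATA3/ESR (CLE) class of signalling peptides, ESR6 is a defensin-like antifungal protein, and MEG genes (maternally expressed genes) encode small cysteine-rich peptides best known from the BETL. Because copies of the ESR and MEG families are so alike, the division of reads among their members is uncertain.

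The primers that the study used to make in situ hybridisation probes for 2 of the 6 genes are given here. Whether they separate these genes from similar copies was not tested. They are written 5′ to 3′, in capitals for the gene-specific part and without the promoter tail of the reverse primers.
MEG14 forward: AGAAGCACACAAAGCGCGT
MEG14 reverse: CTAATTCGTGTTTAGGGGCAG
1d038758 forward: ATGGAGACTTCACGGAGGAGC
1d038758 reverse: CTAGCATGAGAGGCAGAAGCA

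The 180 ESR barcodes were 63 of 5835 barcodes in replicate 1 (1.08%, exact 95% binomial interval 0.831 to 1.38%), 66 of 5918 in replicate 2 (1.12%, 0.864 to 1.42%) and 51 of 5274 in replicate 3 (0.967%, 0.721 to 1.27%). The 3 intervals overlap, and they cover counting error only. Between 4 and 8 barcode sequences were shared by any pair of libraries, and 0 of the shared ones were ESR barcodes in both. The 6 genes were confined to these few barcodes to the extent that ESR barcodes held 96.7%, 98.1% and 98.3% of their UMIs in replicates 1, 2 and 3. The share of the 6 genes in an ESR barcode ran from 5.16% to 36.5% with a median of 17.0%, and it was 10% or more in 151 barcodes and 20% or more in 73. At the limit itself, the 3 lowest shares inside were 5.42, 5.86 and 6.69% in replicate 1, 5.16, 5.29 and 5.66% in replicate 2 and 5.23, 5.83 and 5.96% in replicate 3. The 3 highest shares outside were 3.78, 4.71 and 4.91% in replicate 1, 4.44, 4.80 and 4.80% in replicate 2 and 3.47, 4.42 and 4.94% in replicate 3. These values chose the barcodes and are given as description.

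**Figure D1:**
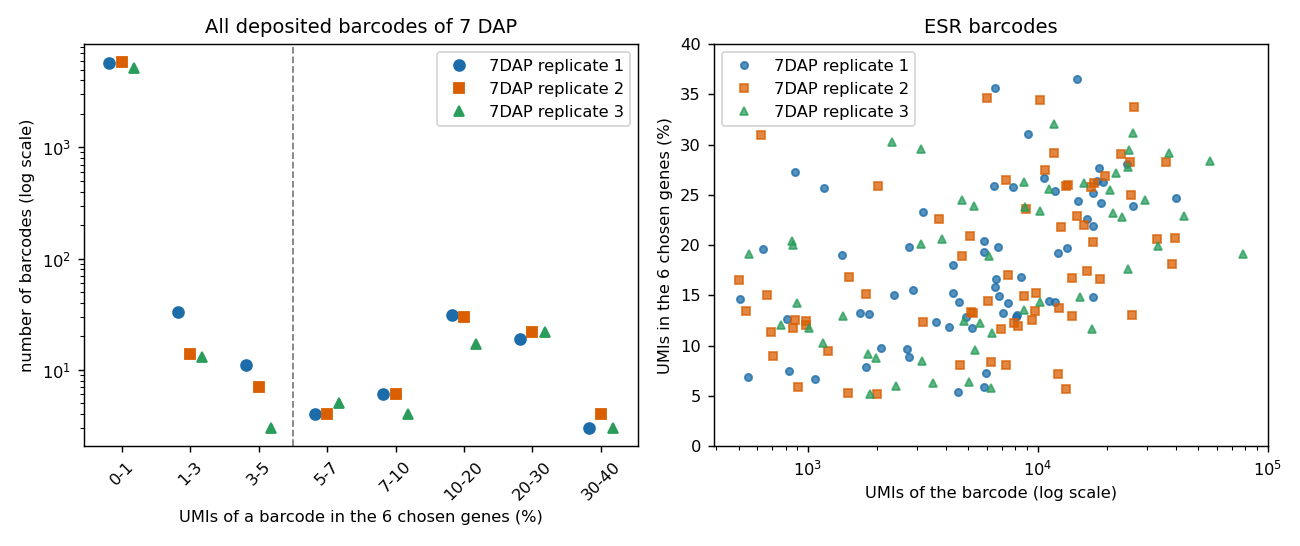
Left, number of 7 DAP barcodes (log axis) by the share of their UMIs held by the 6 ESR genes, for each library, with the 5% limit dashed; right, that share against the UMIs of each ESR barcode (log axis). Nearly all barcodes lie under 1%, 81 lie between 1 and 5%, and the ESR barcodes spread from 5.16% to 36.5%.

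The 6 genes were mostly detected together. All 6 were detected in 157 of the 180 ESR barcodes, 5 of them in 12, 4 in 5, 3 in 3 and 2 in 3 barcodes. ESR2 was the leading gene of the 6 in 79 barcodes, MEG14 in 74, 1d038758 in 22 and ESR1 in 5, whereas ESR3 and ESR6 led in 0. MEG14 led in 33 of 63 barcodes of replicate 1 (52.4%), in 23 of 66 of replicate 2 (34.8%) and in 18 of 51 of replicate 3 (35.3%). The part of MEG14 in the UMIs of the 6 genes ran from 2.34 to 99.5% between barcodes. Detection together therefore does not mean similar proportions. The median share of ESR2 among all UMIs of an ESR barcode was 4.65, 5.25 and 5.38% in replicates 1, 2 and 3, and that of MEG14 was 5.49, 4.57 and 3.86%. In the summed ESR barcodes the 6 genes took similar proportions in all libraries. ESR2 made up 31.8, 35.8 and 37.6% of their UMIs, MEG14 34.4, 29.8 and 28.0%, ESR1 between 16.01 and 17.4%, 1d038758 8.18, 8.83 and 7.32%, ESR3 4.59, 5.49 and 5.29%, and ESR6 4.50, 4.02 and 4.38%. In barcodes under 1%, where the 6 genes were near absent, MEG14 held most of what remained, with 62.8, 55.0 and 69.9% of the UMIs of the 6 genes.

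ESR barcodes were deeper than the rest and held fewer kinds of transcript. Their median UMI count was 6457, 8447.5 and 6281 in replicates 1, 2 and 3, against 3208, 4486 and 4473 in barcodes under 1%. When every barcode was thinned at random to 500 UMIs, ESR barcodes showed a median of 206, 212 and 200 genes, BETL barcodes 336, 336 and 330 genes, and barcodes under 1% 410, 407 and 405 genes. BETL barcodes are the 1475 in which 9 BETL marker genes held 5% or more of UMIs and the 6 ESR genes under 1%. The medians of the ESR barcodes lay below both others in each library, but the 6 genes that chose them take part in this count. With the 6 genes left out and barcodes thinned to 300 UMIs, the medians were 161, 156.5 and 151 genes in ESR barcodes, 217, 217 and 217 in BETL barcodes, and 260, 259 and 258 in barcodes under 1%. The order of the groups stayed the same.

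This low diversity bears on which ESR barcodes pass a quality filter. Complexity, which divides the logarithm of a barcode's gene count by that of its UMI count, had medians of 0.838, 0.840 and 0.833 in ESR barcodes, against 0.926, 0.914 and 0.913 in barcodes under 1%. The ratio includes the 6 genes that chose the ESR barcodes, and it was not taken at equal depth. Of the 180 ESR barcodes 53 were under 0.8, against 5, 8 and 4 of the barcodes under 1% in replicates 1, 2 and 3. The limits of the study (500 to 7500 genes, 1000 or more UMIs, complexity read as this ratio of logs and 0.8 or more) kept 99 ESR barcodes, 35, 35 and 29 by replicate, and removed 81. Complexity was lower in the bins of deeper barcodes, and the share of the 6 genes was highest in the deepest bin but lowest in the second. The median share was 13.0% in 22 ESR barcodes of 500 to 1000 UMIs, 11.01% in 26 of 1000 to 3000, 14.4% in 64 of 3000 to 10000 and 24.3% in 68 above that, while median complexity was 0.901, 0.897, 0.853 and 0.801 in the same order. The 5 deepest ESR barcodes of a library held 24.6, 24.5 and 37.2% of its ESR UMIs, so sums over ESR barcodes lean on few cells.

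The same concentration was present outside the 6 genes. With these left out, 12, 14 and 7 genes held 50% of the UMIs of ESR barcodes in replicates 1, 2 and 3. In BETL barcodes this took 193, 190 and 173 genes, and in barcodes under 1% it took 527, 477 and 465 genes. The 10 most abundant genes held 48.4, 46.9 and 54.6% of UMIs in ESR barcodes, 19.8, 19.1 and 19.8% in BETL barcodes and 11.02, 11.3 and 11.3% in barcodes under 1%. The ranges of the groups did not overlap on either measure.

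**Figure D2:**
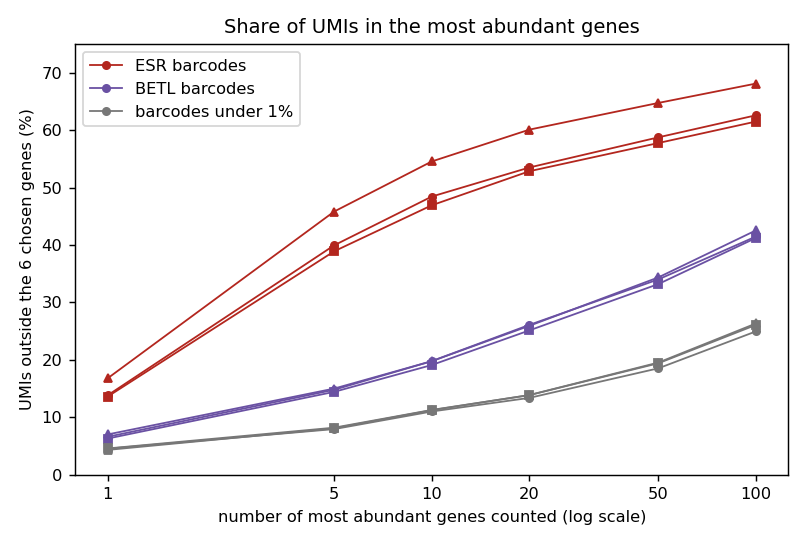
Cumulative percent of UMIs (vertical axis) held by the most abundant genes (number of genes, log axis) in ESR barcodes, BETL barcodes and barcodes under 1%, 1 line per 7 DAP library, with the 6 ESR genes left out. The ESR lines lie uppermost, and the first 10 genes reach 46.9 to 54.6%.

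To ask which other transcripts mark ESR cells, UMIs were summed per library over ESR barcodes and over barcodes under 1%, without the 6 genes, and compared with edgeR's quasi-likelihood test with the library as a block. TMM scaling, which sets the typical gene to no change, was used for levels (normalised counts per 1000000 UMIs, CPM) and fold changes. Genes were tested if their mean before scaling was 10 CPM or more over all sums. A gene scarce outside, such as many leading genes named below, entered only through its ESR sums. Higher was then the call open to it, and its call and p-value are description. Of 8715 genes tested, 1917 (22.0%) were higher in ESR barcodes and 2169 (24.9%) lower at an adjusted p under 0.05. The scaling decides much of this. By UMI totals alone the median log2 fold change of all genes was -0.97 in place of -0.02, 477 genes (5.47%) were higher and 5587 (64.1%) lower, and 133 genes changed from higher to lower. All 477 genes higher by totals were also higher by TMM, and all 2169 genes lower by TMM were lower by totals. Leaving out replicate 2 lowered the counts to 1218 higher and 1394 lower genes. Fold changes are therefore read below relative to the typical gene, and those of the leading genes are far above the shift between scalings.

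**Figure D3:**
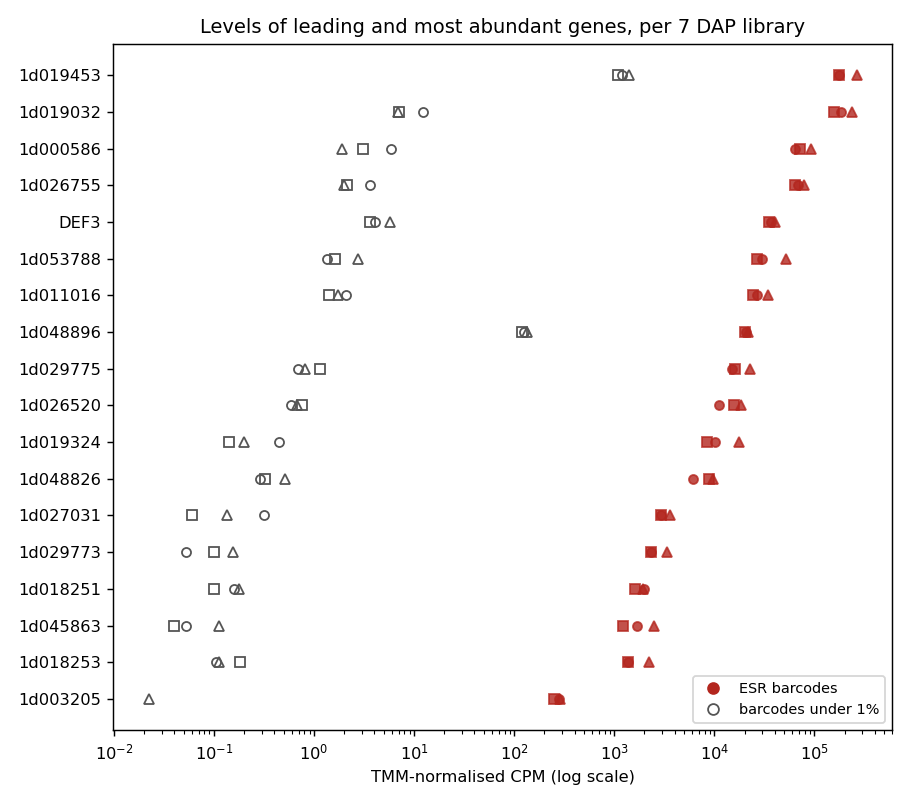
TMM-normalised CPM (log axis) of leading genes in ESR barcodes (filled) and in barcodes under 1% (open), 1 point per 7 DAP library. Each ESR point lies to the right of each open point of the same gene. Libraries with 0 UMIs are not drawn, and 1d015018, with 0 UMIs in all barcodes under 1%, is left out.

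Over the 3 libraries together, the most abundant transcript of ESR cells outside the 6 genes was 1d019453, which the deposited feature table gives no name, with 217667 UMIs. It held 13.3, 13.6 and 16.8% of the remaining UMIs in ESR barcodes of replicates 1, 2 and 3, against 0.172, 0.151 and 0.190% in barcodes under 1%. It was not limited to ESR barcodes, because 28.9% of barcodes under 1% held a UMI of it, against 100% of ESR barcodes. Its log2 fold change was 7.37 ± 0.23 (SE, n = 3 libraries; edgeR adjusted p = 1.02e-32), and 4.12 against BETL barcodes. The gene next in abundance was 1d019032, with 202091 UMIs, whose identifier directly precedes that of MEG14. It held 13.8, 12.0 and 15.1% of UMIs in ESR barcodes, against 0.00176, 0.000981 and 0.000942% in barcodes under 1%, with a log2 fold change of 14.45 ± 0.32. Both stood above every other gene outside the 6 in all 3 libraries. Their order was not fixed, because 1d019032 was the higher one in replicate 1, and in replicate 3 a single barcode held 30.3% of the UMIs of 1d019453.

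The other most abundant genes had no annotation except DEF3 (defensin3), of a family of small antimicrobial peptides. In ESR barcodes of replicates 1, 2 and 3, 1d000586 held 4.82, 5.58 and 5.79% of UMIs, against 0.00085, 0.000425 and 0.00026% in barcodes under 1%. For 1d026755 the shares were 5.22, 4.96 and 4.91% in ESR barcodes, against 0.000529, 0.000295 and 0.000273%. DEF3 held 2.80, 2.75 and 2.56% in ESR barcodes, against 0.000582, 0.000503 and 0.000775%. All libraries of ESR barcodes were far above all libraries of barcodes under 1%, and log2 fold changes were 14.44, 14.76 and 13.07. Next came 1d053788 with 2.28, 2.07 and 3.27% of UMIs in ESR barcodes, then Zm00001d011016 with 2.02, 1.88 and 2.16% and 1d048896 with 1.57, 1.56 and 1.37%. 1d048896 resembled 1d019453 in that it was also present elsewhere, at 0.0181, 0.0166 and 0.0183% in barcodes under 1%, and its log2 fold change was 7.37 ± 0.20, against 4.17 relative to BETL barcodes.

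The 16 genes with the largest fold changes had log2 fold changes from 13.51 to 15.47. The largest was that of 1d019324, with 3124, 3633 and 5704 UMIs in ESR barcodes of replicates 1, 2 and 3, against 33 UMIs in all barcodes under 1%. It was detected in 91.7% of ESR barcodes, against 0.167% of barcodes under 1%. The next after 1d026755 was 1d045863, an aspartic endopeptidase (a protein-cutting enzyme), with 515, 532 and 813 UMIs in ESR barcodes against 9 in all barcodes under 1%. A single barcode held 47.1% of its UMIs in replicate 3, against 8.9% and 8.8% for the top barcode of replicates 1 and 2. The pair 1d026520 and 1d048826 had 16407 and 8844 UMIs in ESR barcodes, against 90 and 50 outside. 1d029775 had 18992 UMIs against 119, and 1d029773, whose identifier is 2 apart from it, 2821 against 14. The defensin-like genes 1d018251 and 1d018253, numbered close to DEF3 (Zm00001d018254), had 1936 and 1756 UMIs in ESR barcodes, against 19 and 18. Zm00001d027031 had 3342 UMIs against 21, and 1d003205 had 290 against 1.

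A gene with no UMI outside was 1d015018, with 14, 43 and 27 UMIs in ESR barcodes of replicates 1, 2 and 3. Set against a floor of 3 UMIs over all barcodes under 1%, it was at least 3462-fold higher in ESR barcodes. It was seen in 21.1% of them, so most ESR barcodes showed none at their depth. In all, 267 genes were higher by more than 4-fold and 54 by more than 32-fold, while 357 were lower by more than 4-fold.

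Taken as 1 group, the 54 genes higher by more than 32-fold marked nearly every ESR barcode. They held a median of 38.4, 39.1 and 38.1% of the UMIs of an ESR barcode in replicates 1, 2 and 3, against 0, 0.00879 and 0.00880% in barcodes under 1%. They reached 5% or more in 62 of 63, 65 of 66 and 51 of 51 ESR barcodes. Among barcodes under 1% the same level was reached by 6, 9 and 8, of which 5, 6 and 5 were BETL barcodes. Because the 54 genes were chosen on these barcodes, the values are a description. Together with the 6 ESR genes they exceeded 50% of all UMIs in 39, 41 and 31 ESR barcodes, with a maximum of 93.7%.

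Markers of the aleurone, BETL and starchy endosperm were lower in ESR barcodes than in barcodes under 1%, while those of the cells next to the scutellum were higher. Barcodes under 1% include cells rich in such markers, so these lower values do not test the ESR label. Of all genes 22.0% were higher and 24.9% lower. AL9, the leading marker of the aleurone (AL, the outer cell layer), stood at 2562, 8325 and 2952 normalised CPM in ESR barcodes, against 31365, 33184 and 31859 in barcodes under 1%. All 3 AL markers tested were lower (median log2 fold change -3.01), and the fourth, 1d024210, had 0 UMIs in ESR barcodes. Of 3 AL markers tested against BETL barcodes 0 were higher and 1 lower (median 0.16). In that comparison 24.6% of all genes were higher and 25.6% lower. The 4 AL markers summed to 0.159, 0.523 and 0.147% of UMIs in ESR barcodes, against 4.60, 4.64 and 4.38%. The part that neighbouring cells or free RNA had in these values was not tested. Without the ESR barcodes in which AL markers reached 1%, 1892 genes were higher and 2187 lower.

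All 9 BETL markers were lower in ESR barcodes, with a median log2 fold change of -4.33. They summed to 0.0211, 0.0110 and 0.0790% of UMIs in ESR barcodes of replicates 1, 2 and 3, against 1.63, 1.63 and 1.86% in barcodes under 1%. In replicate 3 a single barcode held 443 of their 527 UMIs, and without it the sum was 0.0129%. MRP1, the MYB-related activator of BETL genes, had 0, 1 and 3 UMIs in ESR barcodes. The starchy endosperm (SE) markers tested, which were TAR1, DE18 and FL3, were all lower (median -2.27). Of 2 SE markers tested against BETL barcodes 0 were higher and 1 lower (median -0.30). The 5 SE markers summed to 0.00420 to 0.0116% of UMIs in ESR barcodes, against 0.0538 to 0.0684%, with SH2 at 0 UMIs. NACTF130 (NAC-transcription factor 130), which is not in this list but which the study names as an SE gene beside FL3, went the other way. It had 138, 223 and 131 UMIs in ESR barcodes and was higher by 2.79 (2.15 against BETL barcodes), and 61.1% of ESR barcodes held a UMI of it, against 23.5% of barcodes under 1%. Its value was picked after it was seen.

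Maternal ovule MADS genes had 0 UMIs and embryo storage genes 2 UMIs in ESR barcodes, and neither list could be tested. The summed level of the ovule genes in barcodes under 1% was 0.000175 to 0.000236% of UMIs, that of the embryo storage genes 0.00182 to 0.00202%. Markers of the endosperm adjacent to scutellum (EAS), the cells at the upper flank of the embryo, went the other way. MS8, a male-sterility gene, stood at 107, 108 and 126 normalised CPM in ESR barcodes, against 3.36, 2.56 and 2.32 in barcodes under 1% (log2 fold change 5.38 ± 0.24). SWEET15A, a sugar exporter of the SWEET family, stood at 32.4, 43.7 and 67.5 in ESR barcodes, against 1.43, 1.07 and 1.20 (5.29 ± 0.35). Groups did not overlap for either gene, and 28.0% of all genes tested were higher without overlap. Both genes passed the filter of 10 CPM only through their ESR sums, so higher was the call open to them. Both were detected in a minority of ESR barcodes, 37.8% and 20.6%, against 1.45% and 0.650% of barcodes under 1%. The 2 EAS markers were 0.00825 to 0.00944% of UMIs in ESR barcodes, a small part beside the 6 ESR genes, and the part of EAS cells in other ESR values was not tested.

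Genes tied to the ESR in earlier work but left out of the rule were examined as a list of 3, of which 2 were higher. Of all genes 22.0% were higher. INVINH1, an inhibitor of invertases, the enzymes that split sucrose, stood at 2566, 2095 and 2348 normalised CPM in ESR barcodes, against 4.52, 4.33 and 4.26 (log2 fold change 9.05 ± 0.20). The transcription factor O11 (Opaque11) stood at 71.2, 71.3 and 61.3 in ESR barcodes, against 20.8, 20.5 and 18.4 (1.77 ± 0.22). EBE2 stood at 6.47, 25.3 and 27.6 in ESR barcodes, against 13.4, 13.7 and 14.7, and the groups overlapped (0.56 ± 0.35, edgeR adjusted p = 0.191). Against BETL barcodes EBE2 was lower, with a log2 fold change of -2.42, while INVINH1 (8.83) and O11 (1.19) were higher.

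Small secreted peptides outside the rule went in both directions. Of 9 defensin-like and antifungal genes, 3 were higher (DEF3, 1d018251 and 1d018253) and 5 lower, where 22.0% of all genes were higher and 24.9% lower. DEF2 stood at 38.8, 27.6 and 88.9 normalised CPM in ESR barcodes, against 289, 308 and 328 in barcodes under 1%. DEF1 had 0, 1 and 3 UMIs in ESR barcodes (log2 fold change -3.48), and BAP3A and BAP3B, of the basal layer antifungal proteins, were lower by -4.90 and -4.68. 2G046532, abundant on both sides, was lower by -0.47, and FSGT1 did not pass the test (-0.69). Among the MEG genes, MEG14 belongs to the rule, while the 3 others tested were all lower. MEG1, which regulates nutrient uptake into the kernel, had 1, 4 and 2 UMIs in ESR barcodes, MEG3 had 3, 1 and 11, and MEG13 had 1, 1 and 2. Their log2 fold changes were -4.86, -3.78 and -5.92, and MEG7 had 0 UMIs in ESR barcodes.

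Among the 8 genes with the most negative fold changes, 1d011340 had 0 UMIs in ESR barcodes and 32555 in barcodes under 1%, where it stood at 225, 273 and 234 normalised CPM. Against a floor of 3 UMIs over all ESR barcodes its summed level was at least 87.8-fold lower, a bound that covers the counting of UMIs but not of cells. The neighbouring identifiers 1d011342 and Zm00001d011345 had 1 UMI each in ESR barcodes. Few cells account for these genes elsewhere, because 0.883% of barcodes under 1% held 1d011340, 1.23% held 1d011342 and 0.757% held Zm00001d011345. At such frequencies 180 ESR barcodes would hold few carriers or none. Whether ESR cells differ from other cells in these 3 genes was therefore not tested. The remaining 5 genes, 1d027072, TCRR2 (a response regulator of transfer cells), MEG13, 1d007470 and 1d007471, had 1 to 8 UMIs in ESR barcodes. They were lower still against BETL barcodes, with log2 fold changes from -10.10 to -8.83.

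Genes that cut signal peptides from secreted proteins were higher in ESR barcodes. Of 8 such genes, a list that the study drew up from these libraries and that is therefore no independent evidence, all 8 were higher (median log2 fold change 2.02, against -0.02 for all genes), and 6 were higher and 0 lower by totals. The gene umc2510 stood at 1602, 1548 and 1968 normalised CPM in ESR barcodes, against 253, 265 and 279 in barcodes under 1% (2.68 ± 0.15), and pco116042 at 2291, 2038 and 2551, against 430, 480 and 500 (2.28 ± 0.15). MN6 stood at 599, 508 and 721 in ESR barcodes, against 152, 148 and 154 (1.99 ± 0.10). Against BETL barcodes, which also secrete peptides, 4 of the 8 were higher and AY104079 was lower (-0.79), and the median was 0.37. For 17 genes of translocation into and folding in the endoplasmic reticulum (ER) the calls turned with the scaling, as did those of all genes. By TMM 11 were higher and 3 lower (median 0.58), where 22.0% of all genes were higher and 24.9% lower. By totals 1 was higher and 9 lower, where 5.47% of all genes were higher and 64.1% lower. Against BETL barcodes 1 was higher and 11 lower, where 24.6% of all genes were higher and 25.6% lower. By totals the median of the 17 was -0.39, still above the -0.97 of all genes. The gene higher against BETL was SPR1 (0.48).

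All 4 aspartic endopeptidases were higher, by TMM and by totals, and also against BETL barcodes. Of all genes 22.0% were higher and 24.9% lower by TMM, 5.47% were higher by totals and 24.6% higher against BETL barcodes. Besides 1d045863, 1d008750 stood at 1534, 1279 and 1349 normalised CPM in ESR barcodes, against 48.9, 48.7 and 57.5 (log2 fold change 4.74 ± 0.10, and 1.72 against BETL). 1d004734 and 1d009594 were higher by 2.94 and 2.56. Of 5 cystatins, inhibitors of cysteine proteases, PSEI8 was higher, at 3080, 2509 and 3872 in ESR barcodes against 209, 203 and 283 (3.76 ± 0.16). PSEI4 was higher by 0.38 with TMM and lower by totals, and PSEI1, PSEI6 and PSEI7 had log2 fold changes of -0.05, -0.67 and -0.03 that did not pass the test.

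Of 10 genes of sugar transport and cleavage only 4 had counts enough to test, of which 1 was higher and 2 lower. Of all genes 22.0% were higher and 24.9% lower. MN1, the cell wall invertase of the kernel base, had 1, 0 and 0 UMIs in ESR barcodes and 2439 in barcodes under 1% (log2 fold change -4.28). SUS1, a sucrose synthase, had 2, 10 and 4 UMIs in ESR barcodes (-2.76). SWEET4C, a hexose transporter of the BETL, stood at 136, 143 and 101 normalised CPM in ESR barcodes, against 54.5, 62.4 and 61.9 (1.09). It was not called by totals (0.14) or with each barcode thinned to 500 UMIs (-0.25, where the median of all genes was -0.82). It was lower than in BETL barcodes (-0.88). SUT1 had a log2 fold change of -0.56 that did not pass the test.

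**Figure D4:**
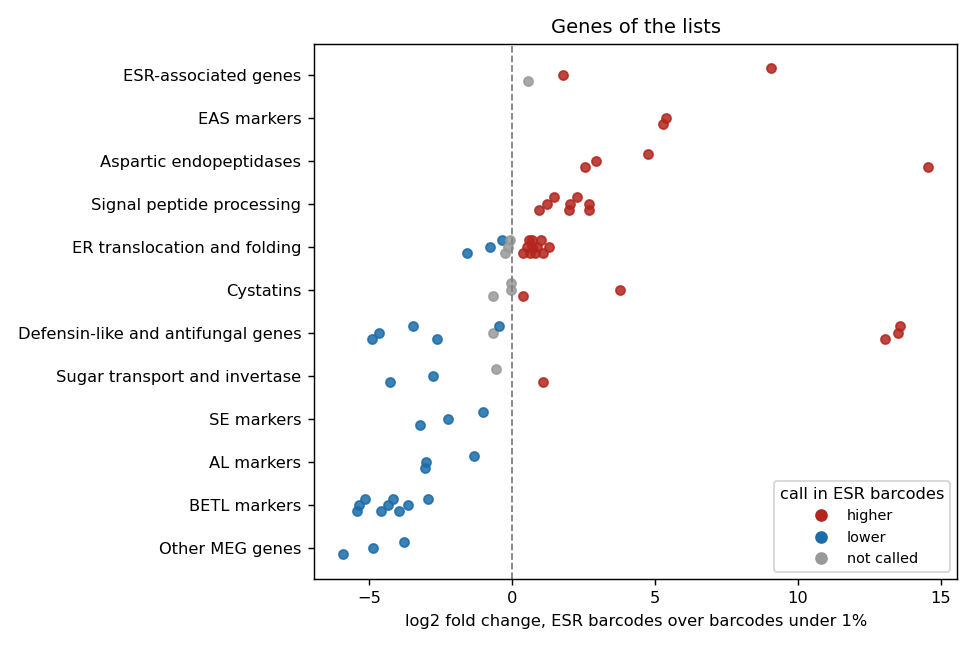
Log2 fold change, ESR barcodes over barcodes under 1%, of each tested gene of the lists (1 point per gene, TMM scaling), coloured by its call. The dashed line is the median of all 8715 genes. BETL, AL, SE and other MEG genes lie below it. Signal peptide processing and aspartic endopeptidase genes lie above it, and the ER genes spread over both sides by TMM. By totals 9 of the 17 ER genes were lower, where 64.1% of all genes were lower.

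The transcription factors whose binding the study profiled held 0.313 to 0.392% of UMIs in ESR barcodes, against 0.756 to 0.803% in barcodes under 1%. Of 105 of them that could be tested, 27 were higher and 21 lower (median log2 fold change -0.03), and by totals 8 were higher and 69 lower. These shares were close to those of all genes, of which 22.0% were higher and 24.9% lower by TMM and 5.47% and 64.1% by totals. MYB155 stood at 35.6, 41.4 and 36.8 normalised CPM in ESR barcodes, against 7.59, 7.37 and 7.51 in barcodes under 1% (2.35 ± 0.31). C3H11 stood at 90.6, 98.9 and 92.0, against 19.6, 17.6 and 20.4 (2.30 ± 0.20). TU1 (Tunicate1, a MADS-box factor), EREB211 and DOF36 were higher by 1.85, 1.79 and 1.67. These 5 genes rest on 29 to 101 UMIs each in ESR barcodes. MYB155 and DOF36 did not differ from BETL barcodes by the test (0.18 and -0.35). The most negative were MYBR29, with 1, 0 and 4 UMIs in ESR barcodes (-4.28 ± 0.39), EREB147 (-2.15) and WRKY8 (-1.39). MYBR29 was also lower than in BETL barcodes (-7.15). WRKY8 did not differ from BETL barcodes by the test (0.18), and EREB147 could not be tested against them.

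The study lists 5 factors whose sets of target genes (regulons) scored as most specific to its ESR cluster. That score rests on the activity of the targets, and transcripts of the factors themselves were scarce. NACTF61 stood at 142, 124 and 138 normalised CPM in ESR barcodes, against 46.6, 47.2 and 46.6 in barcodes under 1% (log2 fold change 1.52 ± 0.16, edgeR adjusted p = 3.55e-11), and was the sole one abundant enough to test. With each barcode thinned to 500 UMIs its call was lost and the value was -1.12, where the median of all genes was -0.82. NACTF65, THX35, ARFTF7 and ARFTF27 had 3, 4, 11 and 17 UMIs over all ESR barcodes. The list was chosen by the study on these libraries and is not independent of them.

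Further named genes were picked after their values were seen. Androgenic embryo3 (1d024607), of a pair of genes named after embryos raised from pollen, stood at 472, 267 and 386 normalised CPM in ESR barcodes, against 1.51, 1.31 and 1.47 in barcodes under 1%, a log2 fold change of 8.00. ANE1 (androgenic embryo1) was higher by 3.21 on 28 UMIs. MADS-transcription factor 25 had 34, 69 and 91 UMIs in ESR barcodes, against 19 in all barcodes under 1% (10.27). ZIM-transcription factor 28, of the jasmonate repressor family, had 34, 33 and 24 UMIs in ESR barcodes (3.11). Indol-3-ylacetyl glucosyl transferase1, which conjugates auxin to glucose, was higher by 4.27, glutathione transferase42 by 3.31 and carbonic anhydrase3 by 2.95.

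Hormone lists of the study gave small numbers, to be read beside 22.0% of all genes higher and 24.9% lower by TMM, and 5.47% and 64.1% by totals. Of 15 jasmonate response genes 7 were higher and 1 lower (median 0.30), and by totals 3 were higher and 8 lower. Of 10 tested auxin response factors 5 were higher and 2 lower (median 0.70), and by totals 2 and 3. ARFTF20 and ARFTF36 were higher by 2.54 and 2.00, and ARFTF11, with 3 UMIs in ESR barcodes, lower by -2.79. For hormone synthesis, 4 of 5 tested auxin biosynthesis genes were lower, including TAR1, which makes the auxin precursor (45.3, 75.9 and 33.7 in ESR barcodes, against 275, 258 and 238 normalised CPM). Of 15 jasmonate biosynthesis genes 0 were higher and 4 lower, and of 7 ethylene biosynthesis genes 0 were higher and 4 lower. By totals 14 of the 15 and 6 of the 7 were lower. Against BETL barcodes, 5 of 13 jasmonate biosynthesis genes were higher and 3 lower, and 11 of 14 jasmonate response genes were higher and 1 lower. In that comparison 24.6% of all genes were higher and 25.6% lower.

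Genes of the cell cycle and of protein synthesis had medians below that of all genes. Of 101 S-phase genes 11 were higher and 32 lower (median -0.19), and of 147 G2/M genes 16 were higher and 48 lower (median -0.39), where 22.0% of all genes were higher and 24.9% lower. By totals 0 and 4 were higher and 89 and 115 lower, against 5.47% higher and 64.1% lower of all genes. HMG9, a chromatin protein used as a cell-cycle marker, had 1, 9 and 15 UMIs in ESR barcodes (-1.15). There were 8 groups defined by words in the deposited gene names, chosen after values were seen. They gave 0 higher and 22 lower of 31 ribosomal protein genes (median -0.55, all 31 lower by totals) and 0 higher and 11 lower of 17 translation initiation or elongation factors (median -0.67). Of 13 glutathione transferases 3 were higher and 6 lower, of 19 histone genes 3 and 5, of 64 kinases 14 and 20 and of 9 tubulins 2 and 5. Of 9 heat shock genes 5 were higher and 1 lower, with 0 and 2 by totals, and of 425 genes named as transcription factors 117 were higher and 64 lower, with 37 and 229 by totals. HSP26, a small heat-shock gene, was higher by 1.32 with TMM and not called by totals (0.37).

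BETL barcodes share gene families such as the MEG genes with ESR cells, and they were compared with ESR barcodes directly, without the 6 ESR genes and the 9 BETL markers. Of 7638 genes tested, 1880 (24.6%) were higher in ESR barcodes and 1957 (25.6%) lower, and by totals 804 were higher and 3574 lower. This comparison shares its ESR sums with the one above, and BETL barcodes are part of the barcodes under 1%. The leading ESR genes were far above BETL barcodes, with log2 fold changes of 15.71 for 1d026755, 14.80 for 1d019032, 13.50 for DEF3 and 16.38 for 1d029775. Smaller differences were found for genes that both classes carried. 1d019453 and 1d048896 differed by 4.12 and 4.17, 1d008750 by 1.72, umc2510 by 1.15 and PSEI8 by 0.53.

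ESR barcodes were not all alike. Among the 132 with 3000 or more UMIs (45, 49 and 38 by replicate), the share of UMIs of 28 abundant genes was compared from barcode to barcode. All values are shares of the same total and come from 3 libraries, so the rank correlations (Spearman's rho) below describe these cells and carry no test. The median rho over 378 pairs was 0.23, 304 pairs were positive and 54 were above 0.5. The closest pair was 1d026520 and 1d048826, with a rho of 0.92 (0.87 to 0.92 within libraries). 1d026520 had 0 UMIs in 27 of the 132 barcodes and 1% or more in 32. Both genes were present in 96 barcodes and both at 0 in 17, while 9 barcodes had 1d026520 alone and 10 had 1d048826 alone. A count of 0 in 3000 UMIs allows a share of up to 0.1%.

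The CLE-like genes moved together, with a rho of 0.77 for ESR1 and ESR3, 0.75 for ESR2 and ESR3 and 0.73 for ESR1 and ESR2, although reads shared between copies would give such values too and their part was not tested. ESR2 had a rho of 0.73 with 1d019032. 1d038758 had a rho of 0.71 with 1d029775 (0.62 to 0.79 within libraries). Against these stood MEG14, whose rho was -0.53 with 1d029775 and -0.50 with 1d038758. Both members of each pair were still detected in 123 of 132 barcodes. MEG14 and 1d038758 both belong to the rule, which took barcodes by the summed share of its genes. A barcode low in MEG14 could then enter only if other rule genes were high, which by itself lowers their rho. 1d029775 is outside the rule but rose with 1d038758. The part of this selection in either negative rho was not tested. The unnamed gene 1d052117 had a rho of 0.60 with DEF3, -0.51 with 1d026755 and -0.47 with 1d019453.

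**Figure D5:**
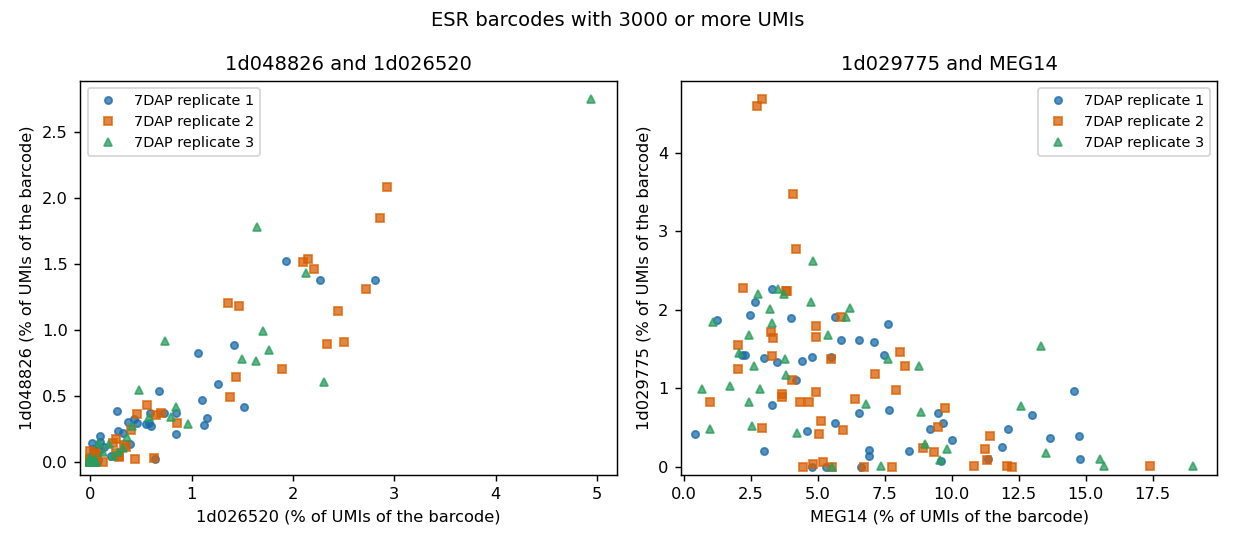
Percent of UMIs per ESR barcode with 3000 or more UMIs (132 points, coloured by library). Left, 1d048826 against 1d026520, which rise together (rho 0.92); right, 1d029775 against MEG14, where barcodes high in one tend to be low in the other (rho -0.53).

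At 6 DAP, where a single library allows no test, 10 of 4627 barcodes met the rule (0.216%, exact 95% binomial interval 0.104 to 0.397%). These barcodes had 511 to 3707 UMIs (median 1375.5), and the 6 genes held 5.09 to 25.2% of them. All 16 genes with the largest fold changes at 7 DAP were detected in these 10 barcodes. For all 16 the exact 95% Poisson interval lay above that of the other 6 DAP barcodes. These intervals cover the counting of UMIs and not the spread between cells. Some genes rest on few UMIs, with 3 in 2 barcodes for 1d015018 and 5 in 4 for 1d003205. 1d018251 and 1d018253 had 8 each and 1d045863 had 9. 1d026755 had 519 UMIs in the 10 barcodes and 1 in the 4617 others, and DEF3 408 against 13. 1d019453 had 2924 UMIs in the 10 barcodes, against 10528 in the others. The 54 genes that were higher by more than 32-fold at 7 DAP held 17.4 to 63.6% of the UMIs of the 10 barcodes (median 41.3%), against a maximum of 6.23% elsewhere at 6 DAP. In 1 of the 10 barcodes BETL markers reached 1% of UMIs.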

How the data were processed

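Libraries were 10x Genomics 3' droplet libraries of protoplasts from B73 endosperm. The authors deposited a matrix of unnormalised UMI counts for each library, produced by Cell Ranger (4.0.0 in the file headers). The submitters' notes also name Seurat. The genome build given to Cell Ranger is not stated in the sources used here (the study aligned its bulk and binding data to B73 v4), and no further normalisation of the deposited counts was made. All deposited barcodes were used, with no doublet caller and no complexity filter in the main setting; the 7 DAP libraries held 5274 to 5918 barcodes, each of 500 or more UMIs.

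ESR barcodes had 5% or more of UMIs in the 6 ESR genes and comparison barcodes under 1%; BETL barcodes had 5% or more in 9 BETL markers. Counts were summed per library and group, the genes that chose the groups removed, and genes with a mean of 10 CPM (UMI counts of a gene per 1000000) or more tested with edgeR 4.0.16 (R 4.3.3, limma 3.58.1; TMM, glmQLFit and glmQLFTest) with the library as a block and Benjamini-Hochberg adjustment over all genes tested. Both sums of a library come from the same preparation, which is the pairing; deviations of the 2 sums from their group means correlated at 0.205, 0.095 and 0.237 over 2472 genes. DESeq2 1.42.0, UMI totals, thinning and further filters were alternatives. On simulated counts at the size of the main comparison (9697 genes tested), 95.7 to 100% of 4-fold changes were found. Of 2-fold changes, 43.5% of decreases and 94% of increases were found, with 15 of 9504 unchanged genes called. For the comparison with BETL barcodes (8028 genes) these were 97.4 to 100%, 60%, 81.6% and 8 of 7845. The simulation gave every gene the same dispersion and changed 200 genes by at most 4-fold. It therefore does not cover sums in which few genes hold much of the UMIs and the scaling decides calls.

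Genes were named by rule: outside the 6 genes, the 16 largest fold changes among genes higher in all 3 libraries with 30 or more UMIs in ESR barcodes; the 8 most negative with 100 CPM or more in comparison barcodes; the 8 most abundant in ESR barcodes; the 5 largest and 3 most negative among transcription factors with binding profiles; and the genes of the lists given beside their counts. The members and lists were chosen with earlier results of these data known, and several lists were drawn up by the study on these libraries. Gene names are those of the deposited feature table or the study. UMI ratios and intervals cover counting error only, since RNA free in the suspension and cells sharing a droplet were not modelled.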

Additional observations from a re-analysis of the deposited data

Results flagged for a closer look

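ESR barcodes in the 6 DAP library were flagged because they lie outside the comparisons of 7 DAP. There were 10 of them, against the 3 that a count of 0 would allow, and with a single library their number was not tested against 7 DAP.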

How the results depend on the processing

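Over 16 alternatives, 553 of 559 values of the 35 genes named by rule kept their direction and side of the threshold, 6 lost the call and 0 reversed. With the genes of the lists, 1540 of 1647 values did so over 103 genes. The genes named by rule were picked for extreme fold changes of the same sign in all 3 libraries, or for abundance. Their stability follows in part from that choice. At limits of 3% and 10%, ESR barcodes numbered 74 and 53, 73 and 56, and 54 and 42 in replicates 1, 2 and 3. Several counts moved. Genes higher and lower in ESR barcodes were 477 and 5587 by UMI totals and 89 and 910 with each barcode thinned to 500 UMIs. Leaving out 1 library at a time gave 1218 to 1669 higher and 1394 to 1905 lower genes, with replicate 2 out giving the lowest. Against BETL barcodes higher and lower genes were 804 and 3574 by totals and 62 and 858 with thinning, 1208 were higher by DESeq2, 3170 were lower with no filter on low genes, and leaving out 1 library gave 1497 to 1641 and 1673 to 1797. Without the replicate block, 1925 and 2141 genes were higher and lower, and 1898 and 1958 against BETL, and no gene of the lists changed its call. Detected genes of ESR barcodes were 50.6% of those of barcodes under 1% at 500 UMIs and 60.3% at 300 UMIs outside the 6 genes.

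Reversed by totals were log2 fold changes of AY104079 (-0.0094), PSEI4 (-0.57), PDI1 (-0.39), PDI8 (-0.27), PDI9 (-0.32), PDI12 (-0.077), BIP1 (-0.28), SEC61 gamma 1d053731 (-0.17), SPR9 (-0.46) and SHPL2 (-0.59). Reversed by thinning, where the cause was not tested, were NACTF61 (-1.12), 1d003539 (-0.18), PSEI4 (-0.54), PDI8 (-1.13), PDI9 (-0.49), BIP1 (-0.30), SEC61 beta 1d011185 (-0.047), SPR9 (-0.22), SHPL2 (-0.90) and SWEET4C (-0.25). Totals leave out the TMM shift by construction, and thinning leaves fewer UMIs to test. The median log2 fold change of all genes was -0.97 by totals and -0.82 with thinning, against -0.02 as reported. A value under 0 in these 2 settings therefore need not lie below the typical gene. Thinning was chosen after seeing the data, as were the alternatives that left out barcodes rich in AL markers or the 5 deepest ESR barcodes of each library. Depth limits the scarce factors: genes under 30 UMIs in ESR barcodes rest on few cells.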
